A study of Mus musculus with 9 samples.

Results

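The 87 genes described here are the Rab GTPases and the SNARE genes named as syntaxins (Stx), vesicle-associated membrane proteins (Vamp) and synaptosomal-associated proteins (Snap). They were taken by name from the protein-coding genes of a mouse count table: Rab followed by a number and at most one letter, or Stx, Vamp or Snap followed by a number, without Stxbp and Snapc genes. The rule found 59 Rab genes and 28 SNARE-named genes (15 syntaxins, 8 Vamp genes and 5 Snap genes) among 21253 genes in all. Snap91 encodes a clathrin assembly protein and not a SNARE, and is counted because its name fits the rule. RNA had been sequenced from mouse AKP tumour organoids, 3-dimensional cultures of tumour epithelium that carry a doxycycline-dependent short hairpin RNA against Apc, the inhibitor of Wnt signalling. The labels do not spell out the name AKP. All groups share this background and the hairpin: 3 control samples stayed on doxycycline with Apc off, 3 samples (2d) were collected after 2 days without doxycycline and 3 samples (7d) after 7 days without it, with Apc restored. The promoter of the hairpin and the number of lines or clones are not given in the labels. Because the labels describe the replicates as technical, a p-value here reflects no more than how far these few samples scatter. Doxycycline withdrawal, Apc restoration and time in culture cannot be told apart.

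Rab proteins are small GTPases that act as switches on membranes: in their GTP-bound form each recruits effectors such as motors and tethers to a particular organelle, and a lipid at the carboxyl terminus holds them there. SNARE proteins carry out the fusion itself, when a Vamp-type SNARE on the vesicle zips up with syntaxin and Snap-type SNAREs on the target membrane. In intestinal epithelium both families are known for building the apical brush border through recycling endosomes (Rab11a, Rab8a, Stx3) and for the release of secretory granules (the Rab3 and Rab27 genes, Vamp8).

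Most Rab proteins end in 1 or 2 cysteines, to which the geranylgeranyl lipid is attached. The ends of 10 genes on which the results turn are shown, since these few codons are where the family meets the prenylating enzyme described at the end. Each line gives the last 30 coding bases with the stop codon, 5′ to 3′, read from GRCm38 with the GENCODE M21 annotation, and capitals mark cysteine codons (TGC or TGT).
Rab3d: cccccacagccgagcagcTGCagcTGTtag
Rab4a: gctccaagtgcacaggagTGTggcTGCtag
Rab15: gcaaactcttcaaagaccTGCtggTGCtga
Rab17: atcaggcagcgccagTGCTGTgcacgatag
Rab34: agcaagaaaaaggccacaTGTTGTccctga
Rab11a: ccaaaggtgcagTGCTGTcagaacatctaa
Rab25: gaaaagagggccTGTTGCatcagcctctga
Rab8a: accagcttcttccggTGCagtctcctgtga
Rab23: aaccctttcagcagcTGTagtgtaccctaa
Rab40b: TGTgccaggaacagcTGCaaaatttcttag
These stretches lie at chr9:21910484-21910513 (minus strand, Rab3d), chr8:123834101-123834130 (plus, Rab4a), chr12:76800243-76800272 (minus, Rab15), chr1:90958884-90958913 (minus, Rab17) and chr11:78191812-78191841 (plus, Rab34). Those of Rab11a, Rab25 and Rab8a lie at chr9:64716849-64716878 (minus), chr3:88542243-88542272 (minus) and chr8:72180108-72180137 (plus), and those of Rab23 and Rab40b at chr1:33739363-33739392 (plus) and chr11:121357037-121357066 (minus). Of the 57 Rab genes whose ends were read, 49 had 2 cysteine codons within the 5 codons before the stop and 8 had 1. Rab3d, Rab4a and Rab15 share the most common arrangement, in which 1 codon separates the cysteines (19 of the 57 genes), and RNA of the first pair was higher and that of Rab15 lower at 7d. Rab11a and Rab25 both end in adjacent cysteines followed by 3 other codons, as 6 genes do. Rab8a, Rab23 and Rab40b are among the 8 genes with a single cysteine there.

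Libraries held 24143589 to 32277040 counts. Apc itself had 6.8, 6.83 and 8.84 CPM (counts scaled to a common library size with TMM factors) in controls, 31.8, 38.1 and 24.8 CPM at 2d, and 67.9, 69.9 and 92.9 CPM at 7d, in the order of the labels. The TMM factors were lower at 7d (0.785 to 0.874) than in controls (1.07 to 1.12), so the choice of scaling moves every 7d value: with library size alone, the median log2 fold change of all genes at 7d against control shifts by -0.40. A member is therefore said below to have risen or fallen only where it passed an edgeR quasi-likelihood test at a Benjamini-Hochberg adjusted p under 0.05 under all 4 scalings tried (TMM, DESeq2 size factors, upper-quartile factors and library size alone). Fold changes, standard errors (SE) and p-values are those under TMM. Epithelial markers were high in every sample, and the summed level of 8 enterocyte markers was 13.4 to 17.9 CPM in controls, 50.7 to 53.6 CPM at 2d and 15123 to 16085 CPM at 7d. Summed goblet cell markers (7 genes) ran at 47.5 to 52.9, 229.8 to 248.4 and 3356 to 4044 CPM in the same order, tuft markers (6 genes) at 126.4 to 142.2, 35.5 to 38.1 and 33.7 to 39.5 CPM, and Paneth cell markers (6 genes) at 32.5 to 35.4, 5.99 to 8.13 and 5.02 to 7.18 CPM. The tuft and Paneth sums were thus already lower at 2d than in any control. Ptgs1 made up nearly all of the tuft sum, at a mean of 133.4, 35.9 and 35.2 CPM in controls, 2d and 7d. Of the scarcer tuft markers, Dclk1 and Pou2f3 were also lower at both times. Avil was higher at 7d than in controls, Trpm5 overlapped the controls at 7d, and Il25 had 0 counts. The tuft sum is therefore mainly a reading of Ptgs1. Enteroendocrine markers (9 genes) stayed at or below 1.13 CPM everywhere, with Pcsk1 at 0 counts in every group. The part of these shifts in the results below was not tested, and in such bulk RNA fewer cells of a type and less RNA per cell cannot be told apart.

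Of the 87 members, 70 passed the filter on low counts (about 0.34 CPM) and were tested. The other 17 had 0 to 23 counts summed over any group, and they include the neuronal gene Snap25 and the gene Rab42, which had 0 counts in every sample. Snap25 had 2, 1 and 1 counts in controls, 2d and 7d. Others were Rab26, Rab33a, Rab36, Rab38, Rab39, Rab39b, Rab3c, Rab44, Rab6b, Rab7b, Rab9b, Snap91, Stx19 and Vamp9. Rab2b and Rab37 passed the filter, though each had samples under it at both 7d and 2d. Together the members took 0.346% to 0.373% of all counts in controls, 0.38% to 0.412% at 2d and 0.381% to 0.413% at 7d. Per length the order was not the same: their summed level was 3318 to 3517 TPM (counts per kb, set to a common total in each sample and not scaled by TMM) in controls, 3575 to 3774 TPM at 2d and 3321 to 3537 TPM at 7d, so 7d and control samples overlapped. Among single members, Rab25, an epithelium-specific Rab of the Rab11 subfamily, had the highest level in every group, with 344.2 to 410.0 TPM in controls, 401.9 to 407.7 TPM at 2d and 309.6 to 357.9 TPM at 7d. Rab5c, which drives early endosome fusion, came next by mean TPM, with 235.6 to 247.0, 245.2 to 271.9 and 255.8 to 286.3 TPM in the same order, below Rab25 in every sample. Its neighbours in controls, the endoplasmic reticulum to Golgi Rabs Rab1b (219.3 to 251.2 TPM) and Rab2a (204.1 to 244.6 TPM) and the late endosome Rab7 (185.6 to 226.1 TPM), overlapped one another, and Rab5c overlapped Rab1b and Rab2a in controls and Rab2a and Rab7 at 2d, so the order below Rab25 is not resolved in those groups. By mean TPM among the members, Rab15 ranked 60 at 7d and 21 in controls, Rab17 15 at 7d and 42 in controls, and Rab3d 12 at 7d and 26 in controls.

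At 7d against control, 26 members rose and 13 fell. Those are 37.1% and 18.6% of the members tested, beside 29.3% of all 12535 tested genes higher and 40.1% lower under the same 4 scalings. Under TMM alone the counts were 47 higher and 13 lower (67.1% and 18.6%), beside 40.5% and 41.8% of all genes (82.3% in either direction, and 69.5% under all 4 scalings), so 21 of the calls of a rise depend on the scaling. The median log2 fold change of the tested members was 0.51, against -0.03 for all genes. In all, 19 of the 70 members (27.1%) passed the test with more than a 2-fold change, 16 upwards and 3 downwards, beside 41.8% of all genes. Among Rab genes 18 rose and 7 fell of 47 tested, and among SNARE genes 8 rose and 6 fell of 23. The counts by role at 7d given below stand beside the same shares of all genes, 29.3% higher and 40.1% lower. The roles hold few genes, and none was tested as a set.

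**Figure D1:**
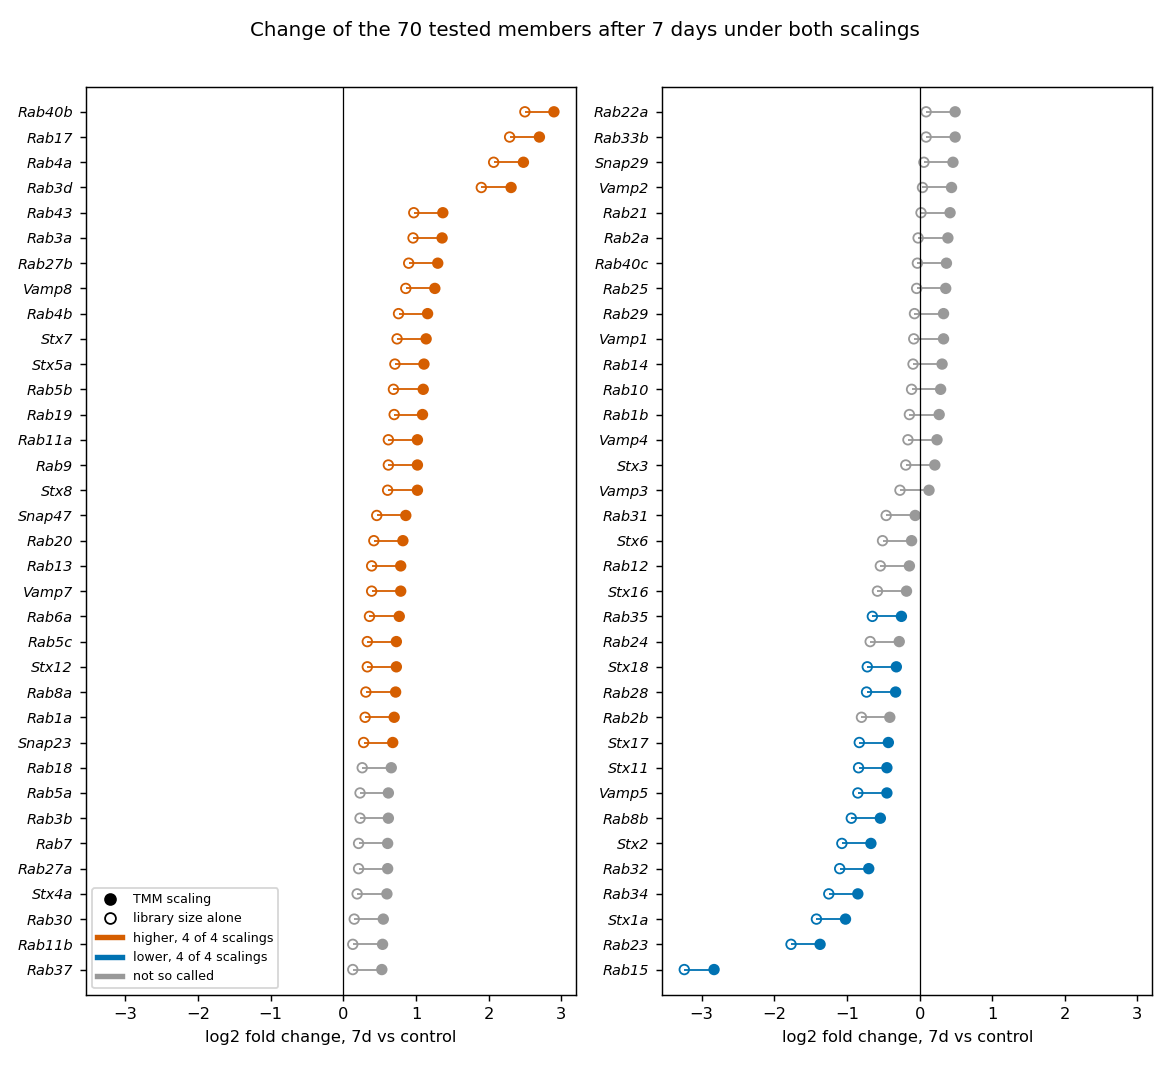
Log2 fold change at 7d against control of the 70 tested members, ordered by size, with TMM scaling (filled points) and library size alone (open points). The top 4 genes (Rab40b, Rab17, Rab4a, Rab3d) and the lowest (Rab15) stand apart from the rest under both scalings, and the genes in grey, such as Rab25 and Stx3, are those not called in the same direction under all 4 scalings.

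The largest rises at 7d were in 4 Rab genes, Rab40b, Rab17, Rab4a and Rab3d. Rab17 (ENSMUSG00000026304, chr1:90958133-90969661, minus strand), an epithelial Rab of apical recycling and transcytosis, had 10.7, 8.95 and 8.38 CPM in controls, 15.2, 15.3 and 15.8 CPM at 2d and 61.5, 63.6 and 56.1 CPM at 7d. The 3 groups did not overlap, and the level was 6.48-fold higher at 7d than in controls (log2 fold change 2.7, SE 0.10, edgeR adjusted p = 1.8e-12). Rab4a (ENSMUSG00000019478, chr8:123805985-123835287, plus strand), which returns cargo from early endosomes to the surface by the fast route, had 9.5, 9.81 and 9.2 CPM in controls, 11.9, 11.6 and 11.8 CPM at 2d and 58.1, 51.7 and 49.3 CPM at 7d. Its level was 5.57-fold higher at 7d than in controls (2.48, SE 0.09, edgeR adjusted p = 1.4e-12) and 0.30 higher on the log2 scale at 2d. Rab40b (ENSMUSG00000025170, chr11:121356125-121388251, minus strand), an atypical Rab that carries a SOCS box and works with a ubiquitin ligase, was far scarcer, with 1.08, 1.09 and 1.07 CPM in controls, 2.05, 1.66 and 1.75 CPM at 2d and 8.57, 7.4 and 8.32 CPM at 7d. It had the largest fold change of the family, 7.47-fold higher at 7d than in controls (2.90, SE 0.15, edgeR adjusted p = 6.3e-11).

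Of the 9 Rab genes of regulated secretion, 6 were tested, and Rab3d, Rab27b and Rab3a rose. Rab3d (ENSMUSG00000019066, chr9:21907491-21918192, minus strand), a Rab of secretory granules in exocrine cells, had 39.4, 41.4 and 33.6 CPM in controls, 64.7, 68.0 and 62.5 CPM at 2d and 205.6, 189.5 and 171.3 CPM at 7d. The groups did not overlap, and Rab3d was 4.95-fold higher at 7d than in controls (2.31, SE 0.10, edgeR adjusted p = 6e-12). Rab27b, which docks secretory granules and exosome-bearing endosomes at the plasma membrane, had 7.38, 7.2 and 7.42 CPM in controls, 9.34, 8.31 and 9.61 CPM at 2d and 15.2, 18.3 and 20.6 CPM at 7d, a 2.46-fold rise at 7d against control (1.30, SE 0.12, edgeR adjusted p = 5.3e-08). Rab3a, best known from synaptic vesicles, was low but separate, with 7.7, 7.4 and 6.45 CPM at 7d and 2.59, 3.13 and 2.59 CPM in controls (2.57-fold higher, edgeR adjusted p = 1.9e-06). Rab27a, the paralog that acts on lysosome-related organelles, was 0.61 higher at 7d on the log2 scale under TMM (SE 0.09, edgeR adjusted p = 2.3e-05) but 0.21 with library size alone (edgeR adjusted p = 0.06, the highest over all alternatives, with a lowest of 5.6e-10), so its 7d change depends on the scaling. None of the 6 fell under TMM (0 by edgeR, 0 also at an unadjusted p under 0.05, by DESeq2 and by limma-voom), and Rab27a, Rab3b and Rab37 were not called under every scaling. Rab26, Rab3c and Rab44 were too low to test. The goblet markers given above moved in the same samples, and their part was not tested.

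**Figure D2:**
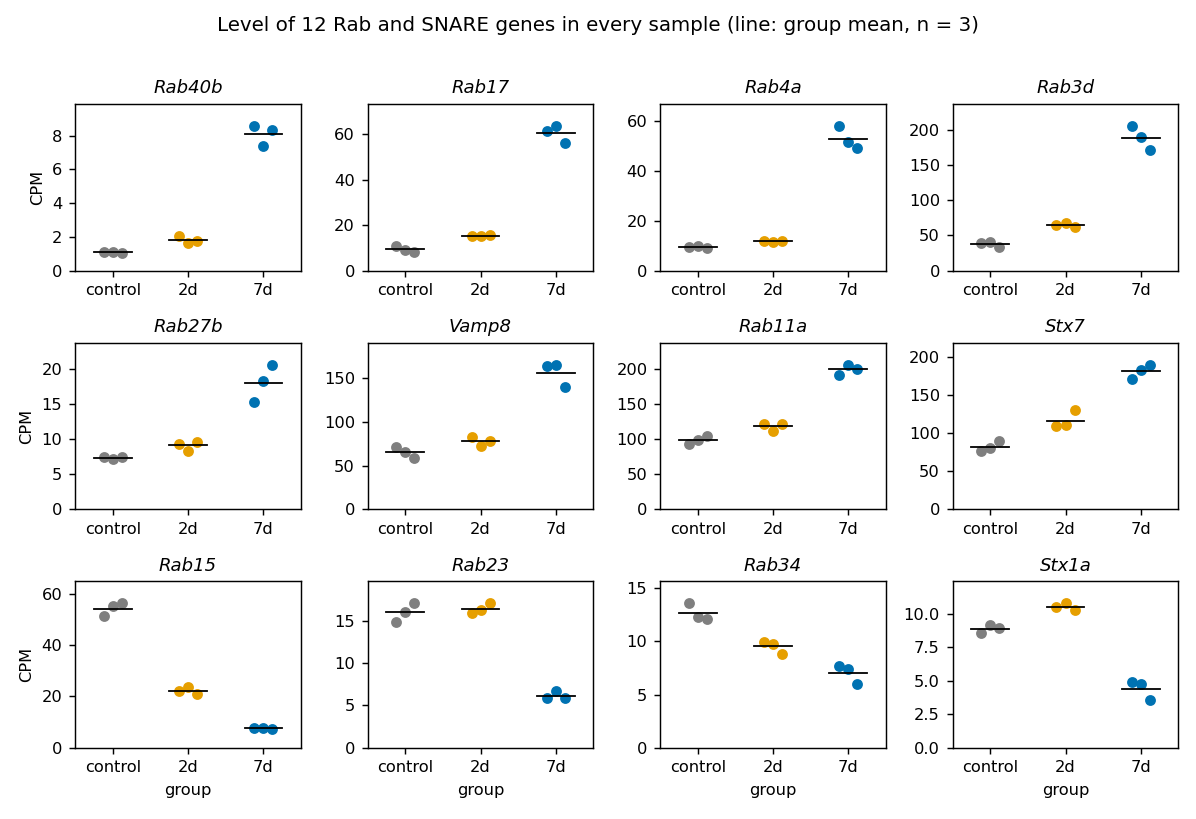
CPM (linear axes from 0) of 12 Rab and SNARE genes in each sample, with 1 point per sample and a line at the mean of the 3 samples of each group (control, 2d, 7d). Rab15 and Rab34 fall at each time, Rab23 and Stx1a are lower at 7d and not at 2d, and Rab17, Rab3d, Rab40b and Stx7 are already higher at 2d.

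In the recycling and polarised traffic group, 4 of 12 genes rose at 7d and 3 fell. Rab11a (ENSMUSG00000004771, chr9:64715299-64737758, minus strand), the Rab of the recycling endosome that delivers cargo to the enterocyte apical membrane, had 93.2, 98.8 and 104.2 CPM in controls, 122.0, 112.4 and 122.4 CPM at 2d and 192.6, 207.0 and 200.8 CPM at 7d. It was 2.03-fold higher at 7d than in controls (1.02, SE 0.07, edgeR adjusted p = 4.9e-09). Rab8a, which carries vesicles from recycling endosomes to the apical membrane, had 218.6, 212.4 and 205.7 CPM at 7d and 133.4, 131.2 and 122.8 CPM in controls, 1.64-fold higher (edgeR adjusted p = 1.5e-07), with 2d samples (130.6 to 136.0 CPM) that overlapped the controls. Rab13, which acts at tight junctions, rose by a similar amount from a low level (0.79, SE 0.12, edgeR adjusted p = 1.5e-05). Rab25 had 278.1, 243.4 and 216.0 CPM at 7d, above 210.1, 196.2 and 167.2 CPM in controls, and was called higher under TMM (0.36, edgeR adjusted p = 0.0038), but its sign turned with library size alone (-0.04, edgeR adjusted p = 0.62, with a range of 0.00015 to 0.62 over all alternatives).

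Rab15 (ENSMUSG00000021062, chr12:76797960-76822908, minus strand), a Rab of early and recycling endosomes that slows receptor recycling, went the other way and fell more than any other member. Its level was 51.1, 55 and 56.3 CPM in controls, 22.0, 23.7 and 20.9 CPM at 2d and 7.83, 7.74 and 7.22 CPM at 7d. No sample of one group overlapped another, and the level was 7.13-fold lower at 7d than in controls (-2.83, SE 0.09, edgeR adjusted p = 3.8e-13). Rab8b, the minor paralog of Rab8a, fell as well, with 7.4, 6.8 and 7.48 CPM at 7d and 10, 10.3 and 11.1 CPM in controls (-0.54, SE 0.10, edgeR adjusted p = 0.00019). Rab35, of the fast endocytic recycling route, fell slightly (-0.25, SE 0.07, edgeR adjusted p = 0.0058).

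Of 9 tested early endosome Rabs, 5 rose at 7d, beside 29.3% of all genes. None was lower under TMM (0 by edgeR, 0 also at an unadjusted p under 0.05, by DESeq2 and by limma-voom), beside 41.8% of all genes by edgeR. Besides Rab4a these were Rab4b, Rab5b, Rab5c and Rab20. Rab5c had 291.8, 250.0 and 245.1 CPM at 7d and 158.3, 163.8 and 150.5 CPM in controls (1.66-fold higher, edgeR adjusted p = 8.9e-07), and Rab5b, its less abundant paralog, had 100.8, 98.2 and 89.2 CPM at 7d and 45.8, 44.4 and 44.5 CPM in controls (2.14-fold higher, edgeR adjusted p = 2.9e-09). Rab4b was 2.24-fold higher (edgeR adjusted p = 0.00018), but 65.0% of its exon bases are shared with another annotated gene and the libraries do not mark the strand, so its reads cannot be assigned with certainty. The same holds for Rab20, with 25.6% of its exon bases shared.

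Of 11 tested Rabs of the endoplasmic reticulum and Golgi, 4 rose and 1 fell. Rab1a, which acts in transport out of the endoplasmic reticulum, had 274.0, 276.5 and 322.0 CPM at 7d and 164.4, 176.7 and 196.7 CPM in controls (1.62-fold higher, edgeR adjusted p = 6.1e-06). Rab6a, of retrograde Golgi traffic, had 201.7, 194.7 and 201.9 CPM at 7d and 109.3, 116.5 and 125.7 CPM in controls (1.70-fold higher, edgeR adjusted p = 2.6e-07). The low genes Rab19 and Rab43 also rose (1.09 and 1.37 on the log2 scale), and 75.4% of the exon bases of Rab43 are shared with another annotated gene. Rab34, a Golgi and ciliary Rab (ENSMUSG00000002059, chr11:78188430-78192193, plus strand), had 13.6, 12.3 and 12.1 CPM in controls, 9.95, 9.79 and 8.84 CPM at 2d and 7.7, 7.44 and 6.01 CPM at 7d, with no overlap of groups (-0.85 at 7d, SE 0.11, edgeR adjusted p = 5.1e-06).

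Of 7 tested genes listed with the Rabs of late endosomes and lysosomes, 3 fell and 1 rose. The list is loose and takes in Rab23 and Rab28, whose place in these organelles the data do not show. Rab23 (ENSMUSG00000004768, chr1:33719887-33742564, plus strand), known as a negative regulator of Hedgehog signalling, had 14.9, 16.0 and 17.1 CPM in controls, 15.9, 16.3 and 17.1 CPM at 2d and 5.93, 6.76 and 5.83 CPM at 7d. The 2d samples lay within the control range and all 7d samples below it, 2.59-fold lower than controls (-1.37, SE 0.10, edgeR adjusted p = 5.5e-09). Rab32, of lysosome-related organelles, had 38.6, 36.2 and 42.3 CPM at 7d and 60.8, 65.4 and 64.6 CPM in controls (1.63-fold lower, edgeR adjusted p = 1.3e-06), and Rab28 fell by 0.33 on the log2 scale. Rab9, which recycles mannose 6-phosphate receptors to the Golgi, rose 2.03-fold (edgeR adjusted p = 2.9e-06). Rab7, the main late endosome Rab, had 231.4, 235.2 and 252.1 CPM at 7d and 148.4, 152.0 and 171.3 CPM in controls (0.61, edgeR adjusted p = 2.5e-05), and was not called with library size alone (0.21, edgeR adjusted p = 0.094, with a range of 3.1e-10 to 0.094 over all alternatives).

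Among the SNAREs, Vamp8 (ENSMUSG00000050732, chr6:72385223-72390703, minus strand), a vesicle SNARE of endosomes, autophagosomes and exocrine granules, had the largest rise. It had 71.3, 65.9 and 58.4 CPM in controls, 82.9, 72.8 and 78.0 CPM at 2d and 163.9, 165.6 and 140.0 CPM at 7d, 2.40-fold higher at 7d than in controls (1.26, SE 0.09, edgeR adjusted p = 5.5e-09). Vamp7, a vesicle SNARE of late endosomes and apical exocytosis, rose 1.73-fold (edgeR adjusted p = 4.1e-05), while Vamp2 was called higher under TMM (0.44, edgeR adjusted p = 0.0016), DESeq2 size factors and upper-quartile factors but not with library size alone (0.04, edgeR adjusted p = 0.74, with a range of 0.0001 to 0.74 over all alternatives). Vamp5, first described in muscle, fell to 9.82, 8.45 and 8.03 CPM at 7d, against 13.4, 12.4 and 9.87 CPM in controls (-0.45, SE 0.14, edgeR adjusted p = 0.0085). Vamp3, of recycling endosomes, and Vamp1 and Vamp4 did not pass the test under TMM.

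Of 5 tested endosome and trans-Golgi syntaxins, 3 rose at 7d, and 0 were lower under TMM by edgeR, at an unadjusted p under 0.05, by DESeq2 or by limma-voom. Stx7 (ENSMUSG00000019998, chr10:24149302-24190222, plus strand), of late endosome fusion, had 77.1, 80.2 and 90.3 CPM in controls, 109.4, 110.6 and 130.1 CPM at 2d and 171.1, 182.9 and 190.5 CPM at 7d, 2.20-fold higher at 7d than in controls (1.14, SE 0.09, edgeR adjusted p = 1.2e-08). Its endosomal partner Stx8 rose 2.02-fold (edgeR adjusted p = 1e-07) and Stx12 1.66-fold (edgeR adjusted p = 2.3e-07). Of 5 tested plasma membrane syntaxins, 3 fell and none rose under all 4 scalings, although Stx3 and Stx4a were called higher under TMM. Stx1a, the syntaxin of neuronal and endocrine exocytosis, had 8.57, 9.18 and 8.91 CPM in controls, 10.5, 10.8 and 10.3 CPM at 2d and 4.89, 4.73 and 3.59 CPM at 7d, 2.03-fold lower at 7d than in controls (-1.02, SE 0.12, edgeR adjusted p = 1.5e-06). Stx2 fell 1.59-fold (edgeR adjusted p = 0.00024), and Stx11, known from granule release in immune cells, fell 1.36-fold (edgeR adjusted p = 0.0017). Summed immune markers (5 genes) were 3.74 to 5.71 CPM at 7d and 1.17 to 1.35 CPM in controls.

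Stx3, the apical syntaxin of enterocytes, had 90.4, 98.1 and 100 CPM at 7d and 79.5, 79.2 and 90.2 CPM in controls. Its call under TMM (0.21, SE 0.08, edgeR adjusted p = 0.024) was lost in 4 of 9 runs that left out a sample, and its sign turned with library size alone (-0.19, edgeR adjusted p = 0.087, with a range of 0.0037 to 0.22 over all alternatives). Stx5a, the main Golgi syntaxin, rose 2.16-fold (edgeR adjusted p = 2.9e-09), whereas Stx17, which acts on autophagosomes, and Stx18, of the endoplasmic reticulum, fell by 0.43 and 0.32 on the log2 scale. Stx18 shares 32.3% of its exon bases with another gene. Snap23, the widely expressed partner of plasma membrane syntaxins, had 38.6, 42.4 and 44.3 CPM at 7d and 24.4, 24.6 and 29 CPM in controls (1.61-fold higher, edgeR adjusted p = 4.7e-06), and Snap47 rose 1.82-fold (edgeR adjusted p = 6.2e-07).

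The 21 members called higher at 7d under TMM but not under every scaling had log2 fold changes of 0.21 (Stx3) to 0.66 (Rab18). They included abundant Rabs of constitutive traffic. Rab14, of Golgi and endosome exchange, had 194.3, 198.7 and 187.1 CPM at 7d and 149.8, 156.8 and 160.0 CPM in controls (0.31, edgeR adjusted p = 0.00062 under TMM), but its sign turned with library size alone (-0.09, edgeR adjusted p = 0.22). Rab18, found on the endoplasmic reticulum and lipid droplets, had 85.1, 92.9 and 108.7 CPM at 7d and 53.1, 59.0 and 69.5 CPM in controls (edgeR adjusted p = 4.1e-05 under TMM, and 0.26 on the log2 scale with an edgeR adjusted p of 0.085 with library size alone). The 7d samples of both lay above all controls under the TMM scaling. The others were Rab1b, Rab2a, Rab3b, Rab5a, Rab7, Rab10, Rab11b, Rab21, Rab22a, Rab25, Rab27a, Rab29, Rab30, Rab33b, Rab40c, Snap29, Stx4a and Vamp2. The 10 tested members that edgeR did not call at 7d under TMM were Rab2b, Rab12, Rab24, Rab31, Rab37, Stx6, Stx16, Vamp1, Vamp3 and Vamp4. With library size alone, edgeR called Rab2b, Rab12, Rab24, Rab31, Stx6, Stx16 and Vamp3 lower at 7d than in controls.

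By 2d, 10 members were higher and 3 lower than in controls, under each of the 4 scalings. That is 14.3% and 4.29% of those tested, beside 12.3% and 9.25% of all genes under the 4 scalings (21.5% in either direction) and 13.1% and 10.6% under TMM alone (23.7%). The median log2 fold change was 0.12, beside 0.0 over all genes tested. Rab15 was the 1 member called beyond 2-fold, or 1.43% of those tested, beside 5.02% of all genes. Rab15 was 2.44-fold lower at 2d than in controls (-1.29, SE 0.08, edgeR adjusted p = 2.7e-08). Rab3d was 0.77 higher on the log2 scale (SE 0.09, edgeR adjusted p = 1.9e-05), Rab40b 0.75 higher (SE 0.17, edgeR adjusted p = 0.0048) and Rab17 0.73 higher (SE 0.10, edgeR adjusted p = 7.5e-05). Stx7 was the only SNARE of the 23 tested that rose at 2d (0.50, SE 0.09, edgeR adjusted p = 0.00076) and Vamp5 the only one that fell, with 8.54, 6.2 and 7.37 CPM at 2d and 13.4, 12.4 and 9.87 CPM in controls (-0.69, SE 0.14, edgeR adjusted p = 0.002).

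Rab29, a Rab of the trans-Golgi and lysosome, was 0.50 higher at 2d (SE 0.12, edgeR adjusted p = 0.0055), with 7.26, 7.68 and 9.3 CPM at 2d and 5.87, 5.48 and 5.82 CPM in controls. Rab27a had 24.8, 27.0 and 23.3 CPM at 2d and 17.0, 19.1 and 20.3 CPM in controls (0.41, SE 0.09, edgeR adjusted p = 0.0052). The remaining calls at 2d were small. Rab4a (0.30), Rab11a (0.27), Rab12 (0.31) and Rab5b (0.24) had edgeR adjusted p-values of 0.027, 0.016, 0.027 and 0.032, and these were lost in 5, 4, 4 and 6 of the 9 runs that left out a sample. Rab34 (-0.41, edgeR adjusted p = 0.012) lost its call in 2. Without control replicate 2, or without 2d replicate 1, 6 members in place of 10 were called higher at 2d.

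Between 7d and 2d, 21 members rose and 14 fell, or 30% and 20% of those tested beside 26.2% and 38.2% of all genes under the 4 scalings (64.4% in either direction). Under TMM alone 44 were higher and 15 lower, beside 39.2% and 39.9% of all genes (79.1% in either direction). Both this and the 7d against control comparison use the same 7d samples. Rab4a (2.17, SE 0.09, edgeR adjusted p = 7.7e-12), Rab40b (2.15, SE 0.13, edgeR adjusted p = 9.8e-10), Rab17 (1.97, SE 0.10, edgeR adjusted p = 5.5e-11) and Rab3d (1.54, SE 0.09, edgeR adjusted p = 6.2e-10) again led the rises. Rab15 (-1.55), Rab23 (-1.41) and Stx1a (-1.26) led the falls. Rab12, a Rab that sends transferrin receptor to lysosomes, had 16.5, 16.6 and 18.4 CPM in controls, 20.5, 20.2 and 23.0 CPM at 2d and 14.2, 16.6 and 16.0 CPM at 7d. Under TMM its 7d samples lay below all 2d samples and overlapped the controls (-0.45 at 7d against 2d, SE 0.10, edgeR adjusted p = 0.00052, and -0.14 at 7d against control, edgeR adjusted p = 0.19). Against control, Rab12 was called lower at 7d with library size alone (-0.54, edgeR adjusted p = 0.00053) and with upper-quartile factors (-0.24, edgeR adjusted p = 0.037). Rab24, an autophagy-related Rab that shares 62.4% of its exon bases with a neighbouring gene, was also lower at 7d than at 2d (-0.48, edgeR adjusted p = 0.0028). Stx2 (-0.92, edgeR adjusted p = 8.8e-06) and Rab32 (-0.64, edgeR adjusted p = 4.2e-06) fell in the same interval. Vamp5 did not pass the test between 7d and 2d (0.24, edgeR adjusted p = 0.13).

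The make-up of paralog groups was compared as the share of length-scaled counts that each gene took of its subfamily, a value that does not depend on the library scaling. With 3 samples a group the exact two-sided permutation test cannot go below p = 0.1, and all shares given here without overlap had that value (0.19 when adjusted over the 72 share comparisons), so no call was made. Vamp8 took 56.3%, 54.9% and 50.2% of the Vamp2, Vamp3 and Vamp8 total at 7d, and 38.8%, 35.9% and 30.6% in controls. Vamp3 took 43.1% ± 3.59 at 7d and 61.3% ± 4.46 in controls (SD, n = 3 each). In the Rab11 subfamily, Rab11a took 25.1%, 29.2% and 31.1% at 7d and 18%, 19.8% and 23.3% in controls, and Rab25 62.0% ± 2.54 at 7d and 70% ± 2.87 in controls (SD, n = 3 each). Neither the Vamp8 nor the Rab11a shares overlapped between these groups.

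Rab3d took 92.4% of the Rab3 total in each 7d sample and 86.0%, 84.9% and 85.6% in controls. Rab27b took 18.5% ± 3.12 of the Rab27 pair at 7d and 12.4% ± 1.01 in controls, a difference of 6.1 points that was 10.3 points from counts not divided by length. Rab8b took 3.26% ± 0.202 of the Rab8 pair at 7d and 7.44% ± 0.704 in controls (SD, n = 3 each). The share of Rab1a within the Rab1 pair, 47.4% at 7d and 40.0% in controls, overlapped between the groups (exact permutation p = 0.2). Of 24 shares compared, 17 did not overlap between 7d and control samples, and 6 did not between 2d and control samples. Each of these had an exact permutation p of 0.1. Shares of the same subfamily are tied to each other, as with Rab8a (4.18 points at 7d against control) and Rab8b (-4.18 points). The counts therefore hold some shifts more than once, and they were not compared with a rate over other genes.

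**Figure D3:**
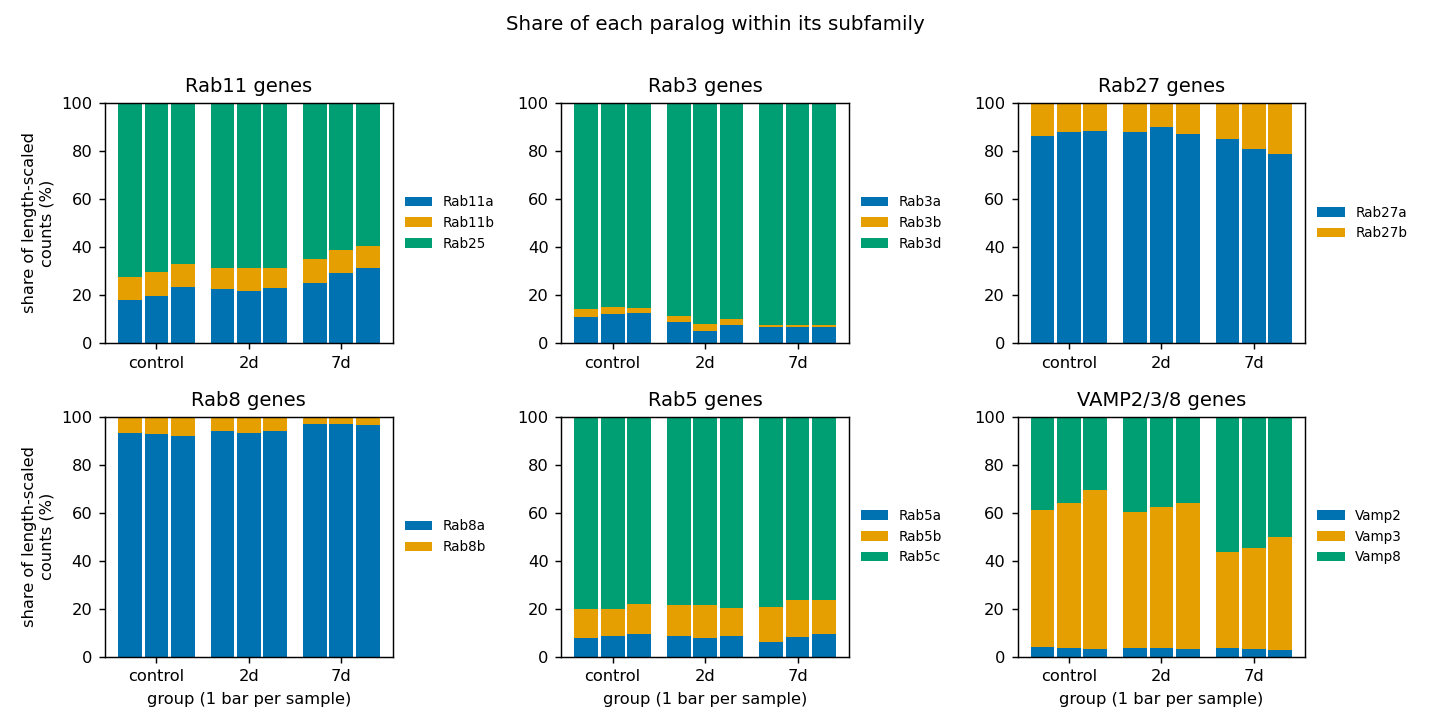
Share (%) of length-scaled counts taken by each paralog of 6 subfamilies, with 1 stacked bar per sample in the groups control, 2d and 7d. The Vamp8 part of the bars is larger in the 7d samples (50.2% to 56.3%) than in the control samples (30.6% to 38.8%), and the Rab8b part is smaller.

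Genes that load, switch and use the Rab and SNARE proteins were followed in 7 lists chosen by function. The list counts at 7d are against control under all 4 scalings, where 29.3% of all tested genes were higher and 40.1% lower. No list was tested as a set. Among 15 tested SNAREs of other names with the disassembly factors, 4 rose and 1 fell at 7d, and among 15 tested Sec1/Munc18 proteins and tethers, 4 rose and 2 fell. Stxbp2, the Munc18 protein that works with Stx3 and Stx11 in apical and granule fusion, had 238.4, 223.3 and 187.3 CPM at 7d and 109.7, 103.3 and 88.9 CPM in controls (2.15-fold higher, edgeR adjusted p = 5e-08), whereas Stx11 fell and Stx3 depended on the scaling. Sec22c (1.31), Vti1b (0.97), Gosr1 (0.77), Stxbp3 (0.87) and Unc13a (2.02) rose on the log2 scale. Of 10 genes with exocyst names, 2 rose and 5 fell. The 2 were Exoc3l4, with 37.4 ± 2.01 CPM at 7d and 6.01 ± 0.452 CPM in controls (SD, n = 3 each), and Exoc7 (0.65). Exoc3l4 is an Exoc3-like gene by name and not one of the numbered subunits of the complex. Exoc6b (-0.63) was among those that fell.

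Both subunits of the lipid-attaching enzyme fell. Rabggtb, the catalytic subunit of the enzyme that puts geranylgeranyl on the cysteines shown above, had 13.4, 15.6 and 14.6 CPM at 7d and 38.8, 44.3 and 53.2 CPM in controls (3.13-fold lower, edgeR adjusted p = 8.9e-09). Rabggta, its other subunit, had 59.4, 50.4 and 46.6 CPM at 7d and 82.8, 82.7 and 71.3 CPM in controls (1.52-fold lower, edgeR adjusted p = 3.2e-05). Of the 8 genes of this list 3 fell at 7d, and 0 were called at 2d by edgeR, at an unadjusted p under 0.05, by DESeq2 or by limma-voom. At 2d edgeR called 23.7% of all genes in either direction, so 0 of 8 genes says little about the list. Among tested Rab genes with 1 cysteine codon in the window, 3 rose and 3 fell of 7, and with 2 cysteine codons 14 rose and 4 fell of 38. Of all tested genes, 29.3% were higher and 40.1% lower under the same 4 scalings. Whether the number of cysteine codons goes with the direction of change was not tested.

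Of 29 tested exchange factors, which turn Rabs on, 7 rose and 7 fell at 7d, beside 29.3% of all genes higher and 40.1% lower. Dennd1c (2.61) and Dennd3 (2.27) rose, and Dennd5a fell by 1.65 on the log2 scale. Of 34 GTPase-activating proteins, which turn Rabs off, 14 rose and 10 fell, among them Tbc1d22a (1.60) and Tbc1d14 (0.95) upwards and Tbc1d4 (-1.58) downwards. Of 34 effectors 13 rose and 5 fell, and the 3 with the smallest p-values all act with Rab27. Sytl1 had 28.5, 24.9 and 22.8 CPM at 7d and 1.93, 1.61 and 1.85 CPM in controls, 14.2-fold higher (3.83, SE 0.13, edgeR adjusted p = 5.3e-13), and was not called at 2d (0.16, edgeR adjusted p = 0.53). Mlph, which links Rab27a to a myosin motor, had 21.7, 19.3 and 17.8 CPM in controls, 39.4, 44.9 and 36.4 CPM at 2d and 95.2, 95.2 and 78.6 CPM at 7d, and Sytl2 6.64, 6.69 and 7.1 CPM in controls, 14.3, 15.1 and 12.2 CPM at 2d and 24.4, 27.6 and 27.1 CPM at 7d. Both were already higher at 2d, by 1.04 and 1.02 on the log2 scale (edgeR adjusted p = 3.8e-06 and 3.6e-06).

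**Figure D4:**
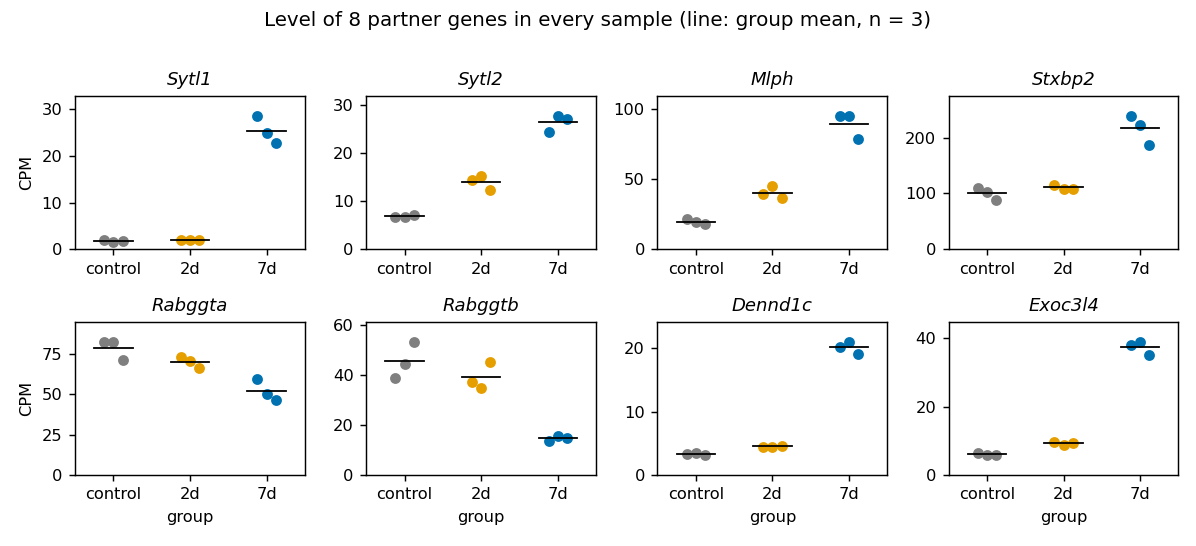
CPM (linear axes from 0) of 8 partner genes in each sample, with 1 point per sample and a line at the mean of the 3 samples of each group. Sytl1 and Exoc3l4 are higher at 7d, Rabggtb is lower at 7d, and Sytl2 and Mlph are higher at 2d and higher again at 7d.

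Promoter windows (250 bases before to 50 after the start, from RefSeq, GRCm38.p6) were found for 71 members, 88 windows in all, and searched on both strands for 3 motifs. The E-box CACGTG was in 9.09% of the member windows and 7.15% of all 32851 windows, and the caudal homeobox form TTTATNG in 7.95% and 10.9%. The nuclear receptor form CAAAGTCCA was in no member window and in 0.475% of all windows. These are counts of letters in a window. The genes that hold TTTATNG are Rab7, Rab8b, Rab15, Rab31, Stx17 and Vamp1.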

How the data were processed

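Poly(A) RNA of 9 organoid samples had been sequenced from libraries made with an unstranded NEBNext Ultra II kit, per the labels' protocols. The authors deposited raw whole-number counts of reads per gene, and per the submitters' processing notes the tools were STAR 2.7.0e, featureCounts and DESeq2 with builds mm10 and GRCm38; the annotation release is not given in the sources used here. Gene IDs were matched to GENCODE M21 (21236 of 21253), which also gave lengths and coordinates.

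Counts were filtered (filterByExpr), scaled with TMM factors and tested for 12535 genes in edgeR 4.0.16 (R 4.3.3) by the quasi-likelihood test, with all 9 samples and group as the only term, two-sided. The p-values were adjusted over all tested genes by the Benjamini-Hochberg method and called under 0.05. The SE is the log2 fold change over the square root of F. Alternatives were DESeq2 size factors, upper-quartile factors, library size alone, other filters, limma 3.58.1 voom, the DESeq2 1.42.0 Wald test, a replicate block and leaving out samples. The members, gene lists and alternatives were chosen with earlier results of these data known, and the demand for a call under all 4 scalings was chosen after the data were seen. Named members were 15 chosen genes plus, per comparison, up to 8 with the largest change in each direction at an adjusted p under 0.05, without overlap of samples and with at least 5 CPM in the higher group. Up to 3 partner genes per list with the smallest p were named. Other genes named in the text were chosen after their values were seen. The testing code was checked on simulated counts. Replicates of a group differed by more than sampling noise in every pair (chi-square per degree of freedom 4.24 to 38.3). Some genes that the rules take are not reported here.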

Additional observations from a re-analysis of the deposited data

Results flagged for a closer look

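Rab12 was higher at 2d than in controls and then lower at 7d than at 2d, with a log2 fold change of -0.45 at 7d against 2d (SE 0.10, edgeR adjusted p = 0.00052), opposite in direction to its change of 0.31 at 2d against control (SE 0.09, edgeR adjusted p = 0.027). Its level was 16.5, 16.6 and 18.4 CPM in controls, 20.5, 20.2 and 23.0 CPM at 2d and 14.2, 16.6 and 16.0 CPM at 7d. Both contrasts use the 2d samples, and the change at 2d was lost in 4 of 9 runs that left out a sample, where its edgeR adjusted p reached 0.12. Over all alternatives the adjusted p at 7d against 2d ran from 8.6e-06 to 0.0034.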

How the results depend on the processing

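At 2d the 4 scalings gave 10 to 11 members higher and 3 lower, and at 7d the counts depended on the scaling. With library size alone, members called higher numbered 26 at 7d against control and 21 at 7d against 2d, and members lower 20 and 23. The partner genes numbered 45 higher and 63 lower at 7d against control, and 43 and 64 at 7d against 2d. Among the members named by rule, signs turned with library size alone for Rab25 (-0.04), Rab29 (-0.07) and Stx3 (-0.19) at 7d against control, and for Rab25 (-0.15), Rab27a (-0.22), Rab7 (-0.01), Stx3 (-0.15) and Vamp2 (-0.10) at 7d against 2d. Of the members outside that rule that were called under TMM, signs turned at 7d against control for Rab10 (-0.11), Rab14 (-0.09), Rab1b (-0.14), Rab2a (-0.02) and Rab40c (-0.03), and at 7d against 2d for Rab14 (-0.17), Rab18 (-0.02), Rab1b (-0.15), Rab21 (-0.12), Rab22a (-0.01), Rab2a (-0.14), Rab30 (-0.13), Rab33b (-0.05), Rab40c (-0.06) and Snap29 (-0.16). Counts called under all 4 scalings were 26 and 21 members and 45 and 43 partner genes higher. Leaving out single samples gave 6 to 13 members higher at 2d (6 without control replicate 2 or 2d replicate 1), 8 to 19 partner genes higher and 809 to 1517 genes lower at 2d. It gave 45 to 48 members higher and 13 to 14 lower at 7d. The share at 7d minus that in controls was 4.62 points from counts not divided by length and 6.91 from length-scaled counts for Rab3d, 10.3 and 6.1 for Rab27b, 4.34 and 2.98 for Rab5b, and -2.77 and -4.94 for Stx3. The replicate numbers paired the samples at most in part. Deviations from the group means correlated at -0.13 to 0.48 between same-numbered samples, and not every sample correlated best with its own number. Between control and 7d samples the correlation was 0.332 for number 1, -0.00504 for number 2 and 0.48 for number 3. The main fit held no block, so a partial pairing is not modelled in it. A replicate block gave 18 members higher at 2d in place of 10. The causes were not tested. Of all values of single named members under an alternative, 1635 kept direction and side of the threshold, 38 passed it newly, 35 lost it and 8 turned.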
